A study of Homo sapiens with 6 samples.

Results

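The genes described here are 3 FOXO transcription factors, FOXO1, FOXO3 and FOXO4, and 5 genes known as their targets or as parts of the insulin and PI3K signalling that controls them, CCNG2, PIK3IP1, IRS2, INSR and TXNIP. They were chosen by symbol through GENCODE identifiers, and all 8 were found among the 18278 genes of the deposited table. The study addressed inhibition of CARM1, an enzyme that methylates arginines of histones and of coactivators, in lymphomas in which CREBBP or EP300 is mutated. Messenger RNA was sequenced from Toledo, an established human diffuse large B cell lymphoma line grown in suspension, so each library comes from 1 line. A set of 3 libraries, here replicates 1, 2 and 3 of TP-064, came from cells kept for 6 days in 5 uM of TP-064, a small molecule inhibitor of CARM1, and 3 came from cells kept for 6 days in the solvent DMSO.

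FOXO factors bind DNA through a forkhead domain and switch on genes of cell cycle arrest, stress defence and metabolism. When growth factor or B cell receptor signals activate PI3K, the kinase AKT phosphorylates FOXO proteins, and 14-3-3 proteins hold the phosphorylated factors in the cytoplasm. When PI3K signalling is low, FOXO proteins return to the nucleus, and several of their targets, such as the insulin receptor INSR and its adaptor IRS2, feed back on the same pathway. In B cells FOXO1 is needed for the early stages of development and for germinal centre responses. The RNA levels given here do not measure the phosphorylation or the location of the proteins.

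RefSeq windows of 300 bases around the start sites (GRCh38.p14, from 250 bases before to 50 after the start) were matched for all 8 genes, in 13 windows. They were searched on both strands for the FOXO recognition letters GTAAACA and ATAAACA, for CAAAACA, a core of insulin response sequences, and for the E-box CACGTG, which the glucose sensing factors of the MondoA family can bind. None of these motifs contains another. The lines that follow show each match in capitals within its flanks, so that the letters can be set beside the expression values of the same genes.
PIK3IP1: taaagagaggcTGTTTACcagaacagcat
FOXO4: cccggcgagtgGTAAACAgagacgtcagg
TXNIP: tcgggctcctgGTAAACAaggaccgggca
FOXO3: ccgagcgaaacATAAACAaacgcacgcac
IRS2: gagtcacatgtTGTTTTGctcttcttagt
CCNG2: ccgcggggagtCACGTGccccgccccct

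Each line reads 5′ to 3′ along the strand of its gene. The PIK3IP1 stretch lies at chr22:31292455-31292483 on the minus strand, with the reverse complement of GTAAACA at bases 17 to 23 after the second RefSeq start. The FOXO4 stretch is at chrX:71095863-71095891 on the plus strand, with the motif at bases 24 to 30, and the TXNIP stretch at chr1:145996686-145996714 on the minus strand, with the motif at bases -124 to -118. FOXO3 holds ATAAACA at bases -234 to -228 of an internal start, in chr6:108560672-108560700 on the plus strand. IRS2 carries the reverse complement of CAAAACA at bases -40 to -34, in chr13:109786606-109786634 on the minus strand, and CCNG2 the E-box at bases -30 to -25, in chr4:77157166-77157193 on the plus strand. Of 34796 distinct windows of the same length in the table, 3.42% held GTAAACA, 4.26% ATAAACA, 4.93% CAAAACA and 7.20% CACGTG. The windows of FOXO1 and INSR held none of these letters, which says nothing on binding elsewhere. Only the exact letters were searched, and variant or paired forms were not. A window without CACGTG, such as that of TXNIP, may therefore still hold a site for factors of the MondoA family.

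TXNIP is shown further because its expression stood apart from that of the other genes with such letters. The 229 bases before its first annotated exon, chr1:145996601-145996829 on the minus strand, read as follows, with the FOXO letters in capitals.
TXNIP upstream: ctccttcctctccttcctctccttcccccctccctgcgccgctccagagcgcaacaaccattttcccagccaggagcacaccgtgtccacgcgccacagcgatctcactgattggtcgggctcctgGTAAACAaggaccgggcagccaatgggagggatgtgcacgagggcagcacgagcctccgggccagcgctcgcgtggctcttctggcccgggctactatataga

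The 6 libraries held 41354131 to 48360867 reads over the listed genes, and TP-064 replicate 3 stood apart. It shared correlations of 0.989 and 0.990 with the other TP-064 libraries, against 0.995 between those. Genes annotated as antisense took 0.338% of its reads, against 0.267% and 0.254% in TP-064 replicates 1 and 2. The DMSO libraries were at 0.210% to 0.217%, so this share was higher in every TP-064 library than in every DMSO library. Leaving TP-064 replicate 3 out moved no call among the 8 genes, and their values without it are given in the closing section. All 8 B cell markers looked up, among them PAX5, MS4A1 and CD79A, were present, with summed levels of 197525 to 202703 normalized read counts after DMSO and 208767 to 224975 after TP-064. Among them CD22 was at 1634 to 1840.2 after DMSO and 279.7 to 334 after TP-064. Of the T cell list 1 of 6 genes was measured, TRAC, at 24.9 to 39.8 after DMSO and 83.1 to 90.03 after TP-064. Of the myeloid list 3 of 7 were measured, with sums of 34.6 to 65.6 after DMSO and 71.2 to 99.5 after TP-064. Within it CSF1R was at 6.49 to 18.9 and 49.5 to 75.2, while CD14 was at 10.8 to 20.9 and 3.96 to 8.74. Of the epithelial, stromal and erythroid list 3 of 9 were measured, with sums of 315 to 349 and 402 to 453, and its genes differed in opposite directions. PECAM1, which leukocytes also express, was at 29.2 to 34.8 after DMSO and 258 to 298 after TP-064, and COL1A1 at 273 to 305 and 135 to 137. The other genes of these lists were not analysed here. The part of the markers in the results was not tested.

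Of the 8 genes 6 were higher after TP-064, FOXO1 was lower, and TXNIP did not pass the test. A gene was called at an adjusted p under 0.05 in a limma fit to log2 values over all 16048 tested genes. All 8 passed the filter on low values, and 7 were called, where 65.1% of all tested genes were called and 80.3% of the genes whose mean reached 1000 normalized read counts. By direction, 6 were called higher, against 31.9% of all genes and 33% of those with such a mean. In the other direction 1 was called lower, against 33.3% and 47.4%. The groups did not overlap for 7 of the 8 genes, 6 higher and 1 lower, as for 69.1% of all genes, 33.9% higher and 35.2% lower. The count tests called the same 7 genes of the 8, while edgeR called 65.9% and DESeq2 52% of all genes. The median log2 fold change of the 8 genes was 0.58, beside 0.01 over all tested genes. PIK3IP1 alone of the 8 passed a minimum of 2-fold, upward, as did 13.1% of all genes, 6.51% higher and 6.56% lower. In these bulk samples fewer cells with a transcript and less RNA per cell cannot be told apart.

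**Figure D1:**
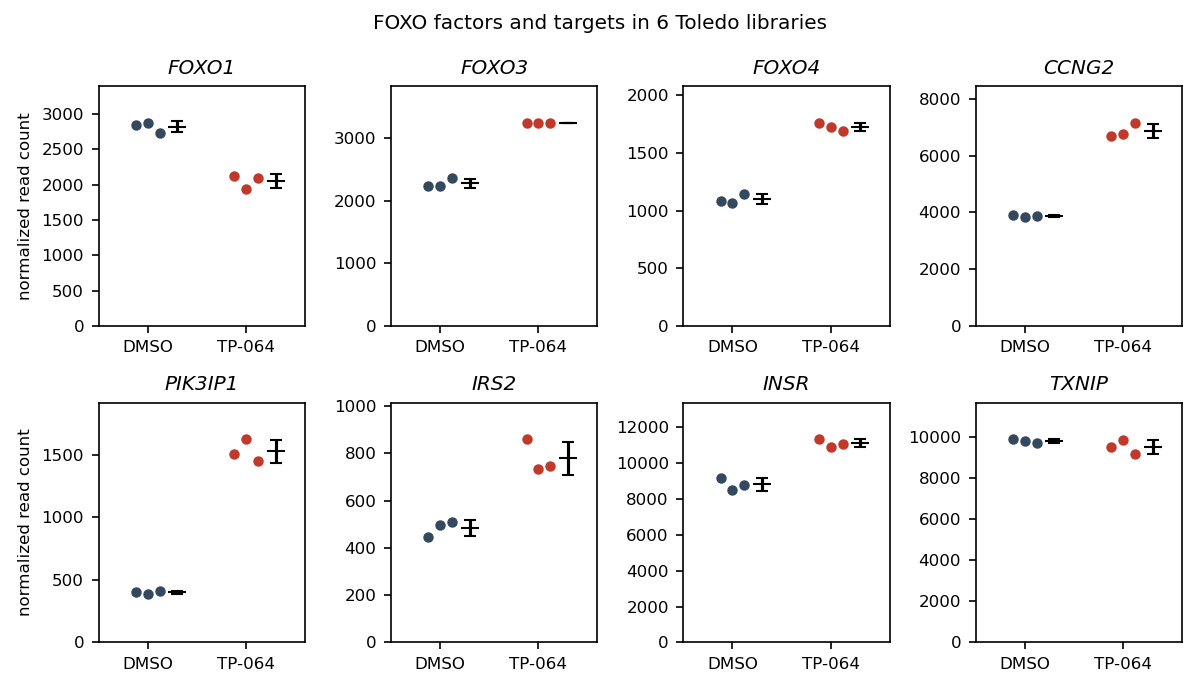
Normalized read counts (y axis, from 0, scale set for each gene) of the 8 genes in the 3 DMSO and 3 TP-064 libraries (points), with the group mean and SD beside them (bars). The points of the groups are apart in every panel but that of TXNIP, and FOXO1 is the 1 gene whose TP-064 points lie below its DMSO points.

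The FOXO factors moved in opposite directions. FOXO1 (ENSG00000150907.7), the main FOXO factor of B cells, lies on chromosome 13 from 40469953 to 40666597 on the minus strand of GRCh38. It read 2120.5, 1941 and 2089 normalized read counts in TP-064 replicates 1, 2 and 3, and 2849, 2876 and 2731 in the DMSO replicates. Every TP-064 library was below every DMSO library. FOXO1 fell by 0.46 on the log2 scale (SE 0.04, 95% interval -0.55 to -0.37, limma adjusted p = 2.30e-07), which is 1.38-fold lower.

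FOXO3 (ENSG00000118689.14), at bases 108559835 to 108684774 of chromosome 6, plus strand, is a broadly expressed factor tied to stress resistance and cell death. The TP-064 libraries held 3246, 3247 and 3242 normalized read counts of it and the DMSO libraries 2241, 2232 and 2363. All TP-064 libraries were above all DMSO libraries, and the 3 TP-064 values differed by less than those of any other of the 8 genes. FOXO3 rose by 0.51 log2 units (SE 0.04), 1.42-fold, at an adjusted p of 1.48e-08 by limma. FOXO3B, a processed copy of FOXO3, can take reads from it and was listed at 159 to 198 normalized read counts after TP-064 and 151 to 190.3 after DMSO, or 4.92% to 8.05% of FOXO3. FOXO3B itself differed by 0.05 log2 units (SE 0.12) at an adjusted p of 0.720 by limma, and the summed level of both was 1.40-fold higher after TP-064.

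FOXO4 (ENSG00000184481.16), at bases 71096197 to 71103535 of chromosome X, plus strand, is the shortest of the 3 FOXO transcripts. It read 1763, 1724 and 1691 normalized read counts after TP-064 and 1085, 1067 and 1146 after DMSO, with no overlap between groups. FOXO4 rose by 0.65 log2 units (SE 0.05), 1.57-fold, at an adjusted p of 7.66e-09 by limma. FOXO6, the remaining member of the family, had few reads, at 14.9, 17.8 and 20.3 normalized read counts in the TP-064 libraries against 16.6, 8.95 and 10.8 in the controls, and did not pass the test.

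Levels of different genes were compared as normalized read counts per kilobase of merged exons. On this scale the order among the FOXO genes was FOXO1, FOXO4, FOXO3 after DMSO, with means of 452, 319 and 295. After TP-064 it was FOXO4, FOXO3, FOXO1, with means of 501, 420.3 and 329. FOXO1 was the first of the 3 in each DMSO library and the last in each TP-064 library, while FOXO4 and FOXO3 lay close together after DMSO, at 309 to 333 and 289 to 306. FOXO1 made up 43.0%, 43.5% and 40.7% of the summed FOXO level in the DMSO replicates and 26.7%, 25.3% and 26.9% in the TP-064 replicates, a difference of -16.1 percentage points. The shares of FOXO3 and FOXO4 were higher in every TP-064 library than in every DMSO library, at means of 33.6% ± 0.546 against 27.7% ± 0.648 for FOXO3 and 40.1% ± 0.618 against 29.9% ± 0.878 for FOXO4 (SD, n = 3 each). Each of these differences had an exact permutation p of 0.1, two-sided, which is the smallest that 3 samples against 3 allow. The summed FOXO level per kilobase was 1249.97 ± 20.4 in the TP-064 libraries against 1066 ± 9.12 in the DMSO libraries (SD, n = 3 each, exact permutation p = 0.1), with no overlap between groups.

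**Figure D2:**
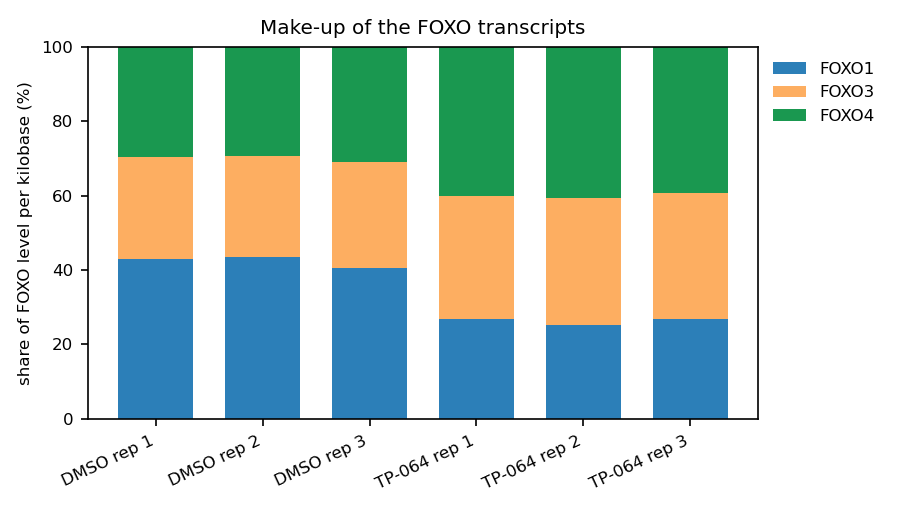
Share of FOXO1, FOXO3 and FOXO4 (stacked bars, percent) in their summed level per kilobase of merged exons, for each of the 6 libraries (x axis). FOXO1 takes 40.7% to 43.5% in the DMSO libraries and 25.3% to 26.9% in the TP-064 libraries.

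PIK3IP1 had the largest change of the 8 genes. It encodes a membrane protein that binds PI3K and lowers its activity, and its gene is known to respond to FOXO. The gene (ENSG00000100100.12) lies on chromosome 22 from 31281593 to 31292534 on the minus strand. Its TP-064 libraries read 1507, 1624 and 1448 normalized read counts and its DMSO libraries 399.7, 389 and 413. The lowest TP-064 value was more than 3 times the highest DMSO value. PIK3IP1 rose by 1.93 log2 units (SE 0.06, 95% interval 1.80 to 2.05), 3.8-fold, at an adjusted p of 4.33e-13 by limma, and 97.4% of all tested genes changed by less in either direction. Of its exons, 36 bases overlap PIK3IP1-AS1 on the opposite strand, which had between 3.98 and 13.8 normalized read counts.

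CCNG2 encodes cyclin G2, an atypical cyclin that slows the cell cycle and is high in resting cells. Its gene, ENSG00000138764.14, spans bases 77157151 to 77433388 of chromosome 4, plus strand. It read 6681, 6769.7 and 7161 normalized read counts after TP-064 and 3916, 3825 and 3875 after DMSO. All treated libraries were higher than all controls, by 0.83 log2 units (SE 0.04), 1.77-fold, at an adjusted p of 3.46e-11 by limma. Its close relative CCNG1, which is best known as a p53 target, was at 3381 ± 133 after TP-064 against 4149 ± 45.9 (SD, n = 3 each), and fell by 0.30 log2 units at an adjusted p of 6.49e-06 by limma.

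The genes for the insulin receptor and its adaptor both rose. INSR (ENSG00000171105.13), the receptor tyrosine kinase for insulin, lies on chromosome 19 from 7112255 to 7294034 on the minus strand. It read 11322, 10907 and 11039 normalized read counts after TP-064 and 9157, 8474 and 8755 after DMSO. The groups did not overlap, but the rise was the smallest among the 6 genes that rose, at 0.33 on the log2 scale (SE 0.04, limma adjusted p = 1.03e-06), or 1.26-fold. IRS2 (ENSG00000185950.8), the adaptor that passes the receptor's signal to PI3K, lies on chromosome 13 from 109752698 to 109786568 on the minus strand. Its levels were 861, 733 and 747 normalized read counts after TP-064 and 446, 497 and 509 after DMSO. IRS2 varied most between replicates for its level among the 8 genes, yet its groups did not overlap. It rose by 0.69 log2 units (SE 0.07), 1.61-fold, at an adjusted p of 9.50e-07 by limma.

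TXNIP differed from the others. It encodes thioredoxin-interacting protein, an arrestin-like protein that binds thioredoxin and limits glucose uptake, and it is induced by glucose through MondoA as well as by FOXO. The gene (ENSG00000265972.5) lies on chromosome 1 from 145992435 to 145996600 on the minus strand. TP-064 libraries read 9481, 9833 and 9148 normalized read counts and DMSO libraries 9875, 9802 and 9688, so the groups overlapped. The log2 fold change was -0.05 (SE 0.03, 95% interval -0.12 to 0.03, limma adjusted p = 0.270). Its sign depended on the scaling. With scaling to library size alone TXNIP passed the test as higher, at 0.077 (limma adjusted p = 0.0356), while the median of all genes was then 0.13.

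**Figure D3:**
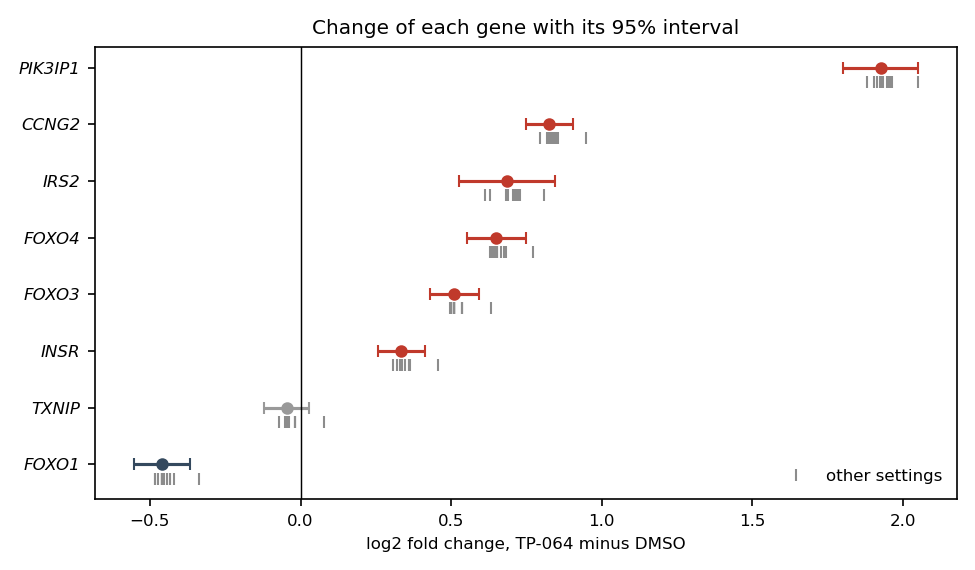
Log2 fold change of each gene, TP-064 minus DMSO (x axis), with its 95% interval (points and bars, red for called higher, dark blue for called lower, grey for not called) and its values under the other settings (grey ticks). Values run from -0.46 for FOXO1 to 1.93 for PIK3IP1, and the ticks cross 0 for TXNIP alone.

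Per kilobase of merged exons TXNIP was the most abundant of the 8 genes in both groups, at means of 2617 after TP-064 and 2700.2 after DMSO, followed by INSR at 1061 and 842 and CCNG2 at 919.6 and 518. IRS2 was the least abundant, at 95.9 and 59.5. PIK3IP1 had a mean of 105 after DMSO, below all 3 FOXO genes, and 401 after TP-064. Its TP-064 values of 381 to 427 then enclosed those of FOXO3, at 419.8 to 420.6, so on this scale these neighbours did not differ beyond their spread. Such orders depend on the length used, and only the FOXO shares were recomputed with longest transcripts. Merged exons and longest transcripts span 3805 and 3030 bases for PIK3IP1 and 7721 and 7341 for FOXO3. For CCNG2 they span 7471 and 5526 bases, and for INSR 10451 and 8954.

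By the distance between their 6 log2 values, each taken from its DMSO mean, the genes most like FOXO1 among 10202 protein-coding genes whose mean reached 100 were GKAP1, NCOA7 and BMS1, at distances of 0.05, 0.06 and 0.07. Those most like FOXO3 were CYTH1, TOGARAM1 and KIAA0895L, at 0.03, 0.04 and 0.04. For TXNIP they were PLXNB2, LPCAT1 and WWP2, at 0.03, 0.03 and 0.04. Such likeness was common, since 496 of these genes had a log2 fold change within 0.05 of that of FOXO1, 308 within 0.05 of that of FOXO3 and 935 within 0.05 of that of TXNIP.

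Other genes of the pathway were taken from 9 lists that hold 182 genes in all, of which 158 were tested and the rest were not analysed here. Over these genes 60 rose, 68 fell and 30 were not called, so 81.0% were called, against 80.3% of all genes whose mean reached 1000. With library size scaling 74 rose and 51 fell. The median log2 fold change over them was -0.05. AKT2, GRB2 and USP7, picked with their values in view, were the 3 lower calls whose sign changed under library size scaling. They were then not called, at 0.010, 0.026 and 0.021 log2 units (limma adjusted p = 0.80, 0.461 and 0.623). Other lower calls were also lost, among them AKT1 and PHLPP1, likewise picked with values in view (limma adjusted p = 0.685 and 0.661). Among the genes named in what follows, ARRDC2, ARRDC3, PIK3CD, CDK2, SIRT2, HBP1, CCNA2, FOXM1, TRADD, BCL2L11, SESN3, BLNK, RAG1 and HK2 share exon bases with an opposite-strand gene of the table, and their reads may hold some of that gene's.

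Relatives of the 8 genes were divided, with 5 of 9 tested genes higher, 3 lower and a median of 0.43. IGF1R, the receptor for insulin-like growth factor and the paralog of INSR, rose by 0.57 on the log2 scale, with means of 1922 ± 70.9 against 1294 ± 50.5 (SD, n = 3 each). The arrestin domain genes related to TXNIP did not share its pattern. ARRDC2 rose by 0.64 (SE 0.04), whereas ARRDC3 fell by 1.004 (SE 0.12), from a mean of 874 ± 111 to one of 439 ± 89.8 (SD, n = 3 each).

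Upstream of FOXO, 14 of 31 tested genes of PI3K and AKT signalling rose, 11 fell and 6 were not called, with a median of 0.05. PIK3AP1, the B cell adaptor BCAP that brings PI3K to the receptor, had means of 74579 ± 895 against 44008 ± 851 normalized read counts (SD, n = 3 each), a rise of 0.76 log2 units (limma adjusted p = 6.26e-11). GAB2, another adaptor, rose by 1.16 (SE 0.06). PIK3CD, the catalytic subunit p110 delta of B cells, fell by 0.28 (SE 0.04). With library size scaling 17 genes of this list rose and 3 fell.

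Of genes whose proteins bind or modify FOXO, 17 of 30 tested fell and 6 rose, with a median of -0.21. With library size scaling 15 were lower and 11 higher. CDK1 and CDK2, kinases of the cell cycle that can also phosphorylate FOXO1, fell by 1.98 and 1.34 (SE 0.04 and 0.05). NLK, a kinase that can inhibit FOXO1, rose by 0.82 (SE 0.05), and the deacetylase SIRT2 rose by 0.48 (SE 0.04). Chosen after their values were seen, the 6 tested 14-3-3 genes, YWHAB, YWHAE, YWHAG, YWHAH, YWHAQ and YWHAZ, were all called lower, as were 33.3% of all tested genes and 47.4% of those whose mean reached 1000, a class that holds all 6. Their log2 fold changes ran from -1.09 for YWHAH to -0.24 for YWHAB. They were called lower under each scaling and count test run, with YWHAB at -0.11 (limma adjusted p = 0.0112) under library size scaling.

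The list of FOXO targets of cell cycle exit did not move as 1 group, with 7 of 15 tested genes higher, 6 lower, 2 not called and a median of 0.06. HBP1, a repressor of G1 progression, rose by 0.99 log2 units, with means of 5649.8 ± 228 against 2851 ± 73.7 normalized read counts (SD, n = 3 each). MXI1, an antagonist of MYC, rose by 0.91 (SE 0.04). Of the 4 tested genes for CDK inhibitors, CDKN1A, CDKN1B and CDKN2D fell and CDKN2B rose. CDKN1A, which encodes p21, read 232, 286 and 225 normalized read counts in the TP-064 libraries against 834, 972 and 969 in the controls. It fell by 1.90 on the log2 scale (SE 0.09, limma adjusted p = 1.01e-10), and CDKN2D fell by 0.49 (SE 0.05). CDKN1B, which encodes p27, fell by 0.17 (SE 0.04, limma adjusted p = 0.00223), a call lost with library size scaling (-0.047, adjusted p = 0.239). CDKN2B, which encodes p15, rose by 1.17 (limma adjusted p = 9.18e-06). CDKN1B and CDKN2B were named after their values were seen.

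Among genes that FOXO factors repress or that oppose them, 8 of 11 tested fell and 1 rose, with a median of -1.69. These are mostly genes of proliferating cells. MKI67, the marker of cycling cells, had means of 4519.6 ± 246 after TP-064 and 16208 ± 303 in the controls (SD, n = 3 each), and fell by 1.84 on the log2 scale, and CCNA2, which encodes cyclin A, fell by 1.94 (SE 0.04). FOXM1, a forkhead factor of mitotic genes that FOXO3 opposes, was named after its value was seen and fell by 1.86 (SE 0.04). CCND2, a D-type cyclin gene, rose by 1.39 (SE 0.18) at low levels, with means of 93.6 ± 18.9 against 34.6 ± 1.90 (SD, n = 3 each).

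FOXO-linked genes of death and survival showed 4 of 12 tested genes higher and 6 lower, with a median of -0.11. PMAIP1, which encodes the death-promoting protein NOXA, fell by 1.23 (SE 0.06), and BCL2, which blocks apoptosis, fell by 0.59 (SE 0.03). The survival gene MCL1 rose by 0.36 (SE 0.03) and TRADD, an adaptor of death receptors, by 0.81 (SE 0.09). BCL2L11, which encodes BIM and is a classical FOXO3 target, was named after its value was seen and fell by 0.18 (SE 0.04, limma adjusted p = 0.000541), a call lost with library size scaling (-0.054, adjusted p = 0.206).

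In the list of metabolism, stress and autophagy, 13 of 24 tested genes rose and 9 fell, with a median of 0.20, and 5 fell with library size scaling. RRAGD, a Rag GTPase that acts on mTORC1 at the lysosome, read 2339, 2319.5 and 2310.4 normalized read counts after TP-064 and 489, 476 and 516 after DMSO. Its log2 fold change was 2.23 (SE 0.05, limma adjusted p = 2.38e-14). FBXO32, the ubiquitin ligase atrogin-1 and a classical FOXO target of wasting muscle, read 1801, 1577 and 1625 against 451, 409.6 and 476, a rise of 1.90 log2 units (SE 0.07) at an adjusted p of 2.40e-12 by limma. The groups of both genes were far apart. PRDX3, a mitochondrial peroxiredoxin, fell by 0.89 (SE 0.04), and ULK2, a kinase that starts autophagy, fell by 1.38 (SE 0.09). Chosen after their values were seen, the sestrin genes SESN1, SESN2 and SESN3 rose by 0.37, 0.26 and 0.81.

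FOXO targets of lymphocytes held the largest rises, with 7 of 13 tested genes higher and 4 lower and a median of 0.22. RAG1, which cuts DNA in V(D)J recombination and is switched on by FOXO1 in B cell precursors, had means of 42971 ± 976 against 13052 ± 986 normalized read counts (SD, n = 3 each), a rise of 1.72 log2 units (limma adjusted p = 1.86e-13). The adaptor gene BLNK rose by 2.50 (SE 0.04). IL7R, a FOXO1 target in lymphocytes, was named after its value was seen and had means of 745 ± 35.9 against 125 ± 11.3 (SD, n = 3 each), higher by 2.57 log2 units. The homing genes did not follow. KLF2 fell by 1.34 (SE 0.10) and the chemokine receptor gene CCR7 by 0.88 (SE 0.06), although both are known FOXO1 targets in lymphocytes.

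Partners of TXNIP and genes of glucose sensing had 3 of 14 tested genes higher, 5 lower and a median of -0.02. In the fit reported 57.1% of them were called, the lowest share of any list, against 65.1% of all tested genes. With library size scaling 5 were higher and 5 lower, and the PI3K and AKT list then had the lowest share. HK2, which encodes a hexokinase, fell by 0.61 (SE 0.04), and TXNRD1, which reduces thioredoxin, fell by 0.46 (SE 0.03). MLXIP, which encodes MondoA, rose by 0.13 (SE 0.04), and ITCH, a ubiquitin ligase that marks TXNIP for degradation, by 0.11 (SE 0.03).

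**Figure D4:**
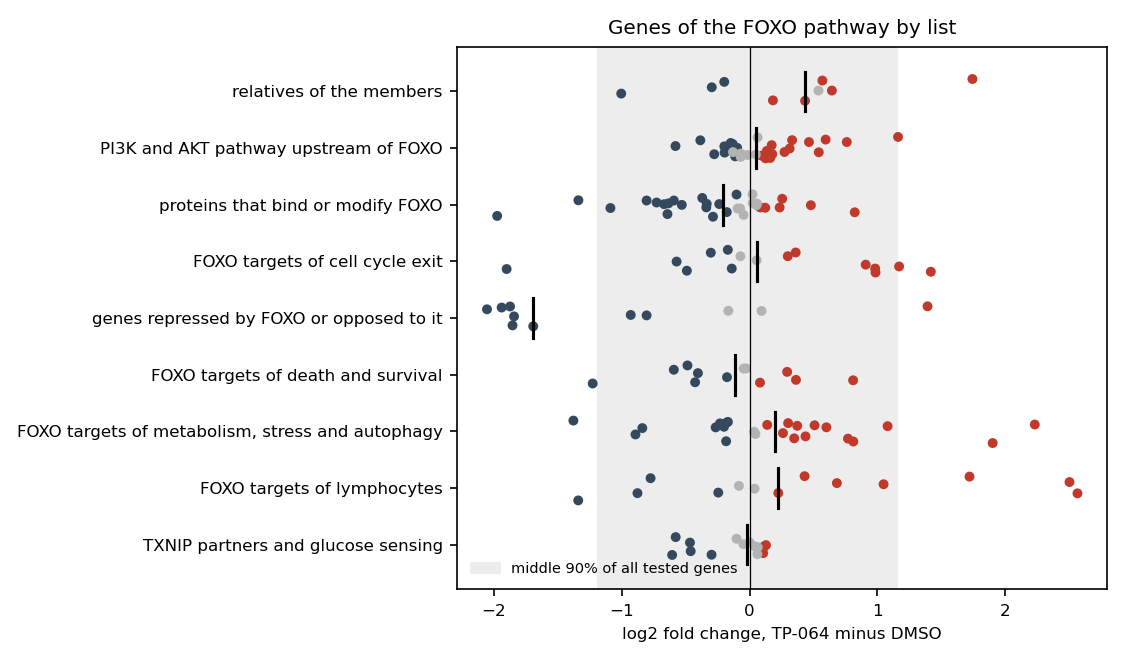
Log2 fold change, TP-064 minus DMSO (x axis), of each tested gene in the 9 lists (points, red for called higher, dark blue for called lower, grey for not called), with the median of each list (black bar) and the middle 90% of all tested genes (shaded, from -1.19 to 1.16). The genes repressed by FOXO or opposed to it lie lowest, with a median of -1.69, and the other medians lie between -0.21 and 0.43.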

How the data were processed

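The authors deposited 1 table, whose signal is a read count divided by its library's size factor. Hg38, TopHat2 2.0.10, HTSeq 0.6.0 and DESeq 1.18.0 are named in the submitters' processing notes. How strand was treated in counting is not given in the sources at hand, and the kit was stranded per the labels' protocols. All values came out as whole reads (tolerance 0.001), which for replicate 2 of each group, where 1 read is worth close to 1, rests on the recomputed size factor.

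Log2 values (normalized read count plus 1) of genes whose mean reached 10 were fitted with limma 3.58.1 (trend, no block) in R 4.3.3. A call is a Benjamini-Hochberg adjusted p under 0.05 over all 16048 genes, two-sided. This scale understates the change of low genes. On simulated data with 15855 genes tested, 98% of genes changed 1.5-fold and 100% of those changed 2-fold were recovered, and 6.16% of calls were false. That simulation changed few genes, all well above the filter on low values and in both directions, whereas 65.1% of tested genes were called here. Its rates therefore do not carry over to these data.

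Symbols from GENCODE 29 matched 18214 of 18278 rows. The members and lists were chosen with earlier results of these data known. Named genes are the 8 members, up to 2 called genes with the smallest p in each direction per list, and the 3 genes nearest to FOXO1, FOXO3 and TXNIP. Any other gene of the pathway lists is marked in the text as picked with its value in view, except FOXO6, the remaining family member. The single marker genes, FOXO3B and PIK3IP1-AS1 were named outside this rule. One gene that this rule names is not reported here. Alternatives were edgeR 4.0.16 and DESeq2 1.42.0 on recovered reads, other scalings, pseudocounts of 0.5 and 5, other filters, a replicate block and each replicate left out. Replicates differed beyond sampling noise (chi-square per degree of freedom of 2.96 to 7.47). The labels do not say that they were separate cultures, so the p-values cover the spread of these libraries, which may be technical.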

Additional observations from a re-analysis of the deposited data

How the results depend on the processing

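The 6 higher calls and the 1 lower call among the 8 genes held with both count tests and under every scaling, filter on low values, pseudocount and left-out replicate run. TXNIP was the exception, at -0.05 in the fit reported and 0.077 with library size scaling, which gave 7 higher calls. That scaling moved the median over all tested genes from 0.008 to 0.130, so the shift was not particular to TXNIP. The cause of the shift was not tested. Without TP-064 replicate 3 the log2 fold changes were -0.47 for FOXO1, 0.51 for FOXO3, 0.67 for FOXO4, 0.80 for CCNG2, 1.96 for PIK3IP1, 0.72 for IRS2, 0.34 for INSR and -0.02 for TXNIP. Library size scaling gave -0.34 for FOXO1 and 0.46 for INSR and moved the share of higher calls over all genes to 61.6% from 48.9%.

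Fewer genes passed when a change of at least 2-fold was required. Of the 8 genes 1 was then higher and 0 lower, of all genes 1045 and 1052, and of the pathway genes 12 and 14. By list these counts were 1 and 1 for relatives, 1 and 0 for PI3K and AKT, 0 and 3 for proteins that bind or modify FOXO, 2 and 1 for cell cycle exit, 6 lower for genes opposed to FOXO, 0 and 1 for death and survival, 3 and 1 for metabolism, 4 and 1 for lymphocytes, and 0 and 0 for TXNIP partners. Fewer genes also remained when those sharing exon bases with an opposite-strand gene were dropped, which left 5 higher calls among the 8 genes, as PIK3IP1 is one of those dropped. Higher calls were then 37 over the pathway genes, 3 for relatives, 3 for cell cycle exit, 2 for death and survival and 3 for lymphocytes, and lower calls 5 for PI3K and AKT, 2 for lymphocytes and 2 for TXNIP partners. At an adjusted p under 0.01 PI3K and AKT had 7 lower calls. With library size scaling that list had 3 lower, the FOXO-binding list 11 higher, metabolism 5 lower and TXNIP partners 5 higher. The list opposed to FOXO had 2 higher calls, in place of 1, with edgeR, DESeq2, library size or TMM scaling, the 1 CPM filter, the replicate block, and without TP-064 replicate 3 (1 to 2 over left-out replicates).

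Deviations of same-numbered libraries correlated at -0.09, 0.07 and -0.08, so no shared effect of replicate number was seen. These values cannot tell whether the samples were set up in pairs. With the replicate block the 8 genes had 6 higher and 1 lower calls, and 5141 and 5350 genes were called over all. The share of FOXO1 moved to -16.3 percentage points with longest transcript lengths.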
